A study of Homo sapiens with 6 samples.

Results

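Histone chaperones escort newly made histones and hand them to DNA, and they fall into routes that serve either replicating or non-replicating chromatin. A set of 10 genes of this class was followed through 20289 genes of a ribosome footprint table: NASP, ASF1A, ASF1B, CHAF1A, CHAF1B, RBBP4, HIRA, DAXX, ATRX and HJURP. The 10 were chosen by name, with earlier results of these data known. All 10 members were found in the table by Ensembl identifier and symbol, and all 10 had enough footprints to be tested. Footprints are short pieces of mRNA protected from digestion by the ribosome that was reading them. They came from RKO cells, a human colorectal cancer line, in 3 libraries of cells with a short hairpin RNA against TRMT6 (shTRMT6) and 3 of cells with a control hairpin (shControl). TRMT6 is the non-catalytic partner of the enzyme that places m1A at position 58 of cytosolic tRNAs. The series compares the knockdown with the control-hairpin cells. Each label names RKO and either wild type or TRMT6 knockdown, with no treatment or time, and no more is given on the hairpins, on how they were delivered or on whether the cells are a clone or a pool.

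Values are FPKM, which are per length of the gene, so levels can be set beside each other between genes. Deposited FPKM summed to between 1532000 and 1583000 in shTRMT6 and between 1463000 and 1760000 in shControl libraries, and steps between low values gave an estimated 2571000 to 4082000 reads per shTRMT6 library and 2625000 to 3922000 per shControl library. TRMT6 itself had 20.7 to 24.1 FPKM in shTRMT6 and 57.6 to 95.3 FPKM in shControl. Of 7 epithelial markers, the keratins KRT8 and KRT18, EPCAM and the intestinal factor CDX2 were detected in both groups, KRT19 had 1.52 FPKM in 1 shControl library and was listed at 0 in the other five, and CDH1 and VIL1 were listed at 0 in every library. The 3 blood markers were listed at 0 throughout, and 3 fibroblast and endothelial markers summed to at most 0.7 FPKM in shTRMT6 and 0.98 FPKM in shControl libraries. Whether the 3 libraries of each group stem from separate cultures is not labelled, so p-values reflect the spread among these libraries alone, which may be technical. Footprint level combines mRNA amount and ribosomes per mRNA, and fewer cells in a given phase cannot be told apart from fewer footprints per cell.

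As background, H3 and H4 are carried together as a dimer. NASP holds a soluble reserve of H3-H4, and ASF1A and ASF1B pass the dimer on to depositing complexes. CAF-1, made of CHAF1A, CHAF1B and RBBP4, places it behind the replication fork. Outside replication, the HIRA complex and the pair of DAXX and ATRX place the variant H3.3, HIRA mostly in active chromatin and DAXX with ATRX at telomeres and repeats, while HJURP places the centromeric H3 variant CENPA. ASF1A and NASP also feed the HIRA route, so the split into 6 replication-coupled and 4 replication-independent members is a simplification.

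The upstream sequence of 3 members is shown because ASF1B fell and HJURP rose while both hold the same pair of short words, and HIRA, which rose, holds another. Each line gives 180 bases that end just before the RefSeq transcription start (GRCh38.p14). All 3 are on the minus strand and written 5′ to 3′ along the gene. They lie at chr19:14136590-14136769 for ASF1B, chr2:233854536-233854715 for HJURP and chr22:19431734-19431913 for HIRA. The GENCODE gene positions given below put the 5′ ends at 14136956, 233854566 and 19447450, in the same order. By those positions the ASF1B and HIRA windows lie inside the gene, and the HJURP window overlaps its gene in part. The windows are thus upstream of the RefSeq start only. Capitals mark the CCAAT word or its reverse complement ATTGG, the cell cycle word TTTGAA (the CHR element, known from genes of late cell cycle phases) and the E2F-type word TTTCCCGC.
ASF1B: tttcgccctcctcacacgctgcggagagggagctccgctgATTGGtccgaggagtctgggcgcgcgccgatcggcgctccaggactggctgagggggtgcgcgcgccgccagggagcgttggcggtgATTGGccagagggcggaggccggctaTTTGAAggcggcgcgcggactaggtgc
HJURP: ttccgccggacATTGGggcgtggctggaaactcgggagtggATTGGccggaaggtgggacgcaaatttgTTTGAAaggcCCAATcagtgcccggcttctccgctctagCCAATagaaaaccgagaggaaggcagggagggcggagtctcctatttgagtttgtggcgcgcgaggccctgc
HIRA: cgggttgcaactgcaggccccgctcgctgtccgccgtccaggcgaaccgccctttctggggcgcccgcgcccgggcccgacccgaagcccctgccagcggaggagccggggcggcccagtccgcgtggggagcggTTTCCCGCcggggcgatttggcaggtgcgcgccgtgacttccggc

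The words were searched on both strands in 250 bases before the RefSeq start. ASF1B and HJURP each held both CCAAT and TTTGAA, a pairing found in 2 of the 8 members with a promoter entry and in 5.79% of all 27305 genes with one. CCAAT, with or without TTTGAA, was held by 5 of the 8 members, against 37.0% of all genes. Of the E2F-type words TTTCCCGC, TTTGGCGC, TTTCGCGC and TTTGCCGC, only the first was found, in HIRA alone among the 8, against 3.40% of all genes with any of them; ATRX and DAXX were not searched. A match says only that the letters are there.

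The 4 replication-independent chaperones all had more footprints in shTRMT6 than in shControl cells, and of the 6 replication-coupled chaperones ASF1B alone fell while the other 5 did not pass. In the limma fit over 11566 tested genes, with Benjamini-Hochberg adjusted p under 0.05 as the threshold, 4 of the 10 members were higher, against a background of 26.5% of tested genes, and 1 was lower, against 9.04%. In these 5 genes the groups did not overlap, and they overlapped in the other 5; among all tested genes 37% were higher and 14.3% lower without overlap. The median log2 fold change was 1.13 over the 4 replication-independent members and -0.17 over the 6 replication-coupled members, beside 0.39 over all tested genes, which were thus shifted upward as a whole. With each library scaled to its own median these medians were 0.65, -0.65 and -0.07, and the count was 1 higher and 2 lower, against backgrounds of 13.2% and 19.7%. On deposited FPKM, 2 members were higher without shTRMT6 replicate 2, beside 2080 of 11566 genes, and 1 without shTRMT6 replicate 3, beside 1828.

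**Figure D1:**
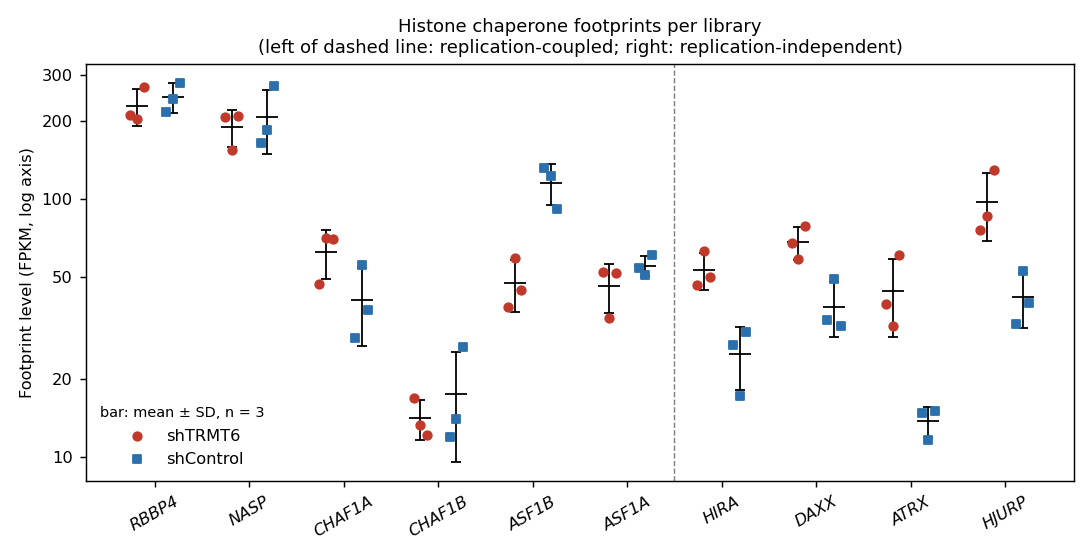
Footprint level in FPKM on a log axis for the 10 chaperones, with 1 point per library, shTRMT6 as circles left of shControl as squares, and black bars for the mean ± SD of 3 libraries. HIRA, DAXX, ATRX and HJURP lie higher in every shTRMT6 library than in every shControl library, ASF1B lies lower, and the other 5 overlap.

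HIRA is the scaffold of the complex that places H3.3 outside replication. It lies on the minus strand of chromosome 22 from 19330698 to 19447450 (ENSG00000100084; GENCODE 29, GRCh38) and encodes 3051 nt over 25 exons. HIRA had 46.5, 62.6 and 49.6 FPKM in shTRMT6 libraries 1 to 3, against 27.2, 17.3 and 30.7 FPKM in shControl libraries 1 to 3. All 3 knockdown values lay above all 3 control values, with shControl replicate 2 the lowest of the 6. Means of 52.9 ± 8.54 FPKM in shTRMT6 and 25.05 ± 6.91 FPKM in shControl (SD, n = 3 each) gave a 2.11-fold higher level in shTRMT6, and the log2 fold change was 1.08 (SE 0.28, limma adjusted p = 0.0164). Of the 28-nt stretches of its coding sequence, 90.4% also occur in a transcript of C22orf39, so how reads were divided between the pair is uncertain. C22orf39 overlaps HIRA on the same strand, from 19351368 to 19448232. C22orf39 had 34.9 ± 4.75 FPKM in shTRMT6 and 25.0 ± 15.2 FPKM in shControl (SD, n = 3 each) and did not pass.

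ATRX, a chromatin remodeller that works with DAXX at heterochromatin and telomeres, showed the largest log2 fold change of the 10 members. It lies on the minus strand of chromosome X from 77504878 to 77786233 (ENSG00000085224) and has the longest coding sequence of the group, 7476 nt in a transcript of 35 exons. ATRX had 39.2, 32.2 and 60.4 FPKM in shTRMT6, against 14.8, 11.7 and 15.04 FPKM in shControl. The lowest knockdown library was still more than every control library, and shTRMT6 replicate 3 stood above the other two. ATRX averaged 43.9 ± 14.7 FPKM in shTRMT6 and 13.8 ± 1.85 FPKM in shControl (SD, n = 3 each), 3.17-fold higher in shTRMT6 (log2 fold change 1.56, SE 0.30, limma adjusted p = 0.00471). The last bases of its codons are poor in G and C, at 31.5% against a median of 58.3% over tested genes.

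DAXX, the H3.3 chaperone that partners ATRX, changed least among the 4. It lies on the minus strand of chromosome 6 from 33318558 to 33323016 (ENSG00000204209). DAXX had 67.3, 58.3 and 78.3 FPKM in shTRMT6, against 33.9, 48.9 and 32.1 FPKM in shControl. Again no values overlapped, with shControl replicate 2 closest to the knockdown range. The log2 fold change was 0.83 (SE 0.26, limma adjusted p = 0.0312), on means of 67.96 ± 9.99 FPKM in shTRMT6 and 38.3 ± 9.20 FPKM in shControl (SD, n = 3 each). The call ended without shTRMT6 replicate 1, 2 or 3 or shControl replicate 1, with adjusted p of 0.0960, 0.0554, 0.122 and 0.0909. Of the 28-nt coding stretches of DAXX, 17.1% also occur in 7 other annotated genes.

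HJURP, which recognises CENPA and brings it to centromeres after mitosis, also rose. It lies on the minus strand of chromosome 2 from 233833416 to 233854566 (ENSG00000123485). HJURP had 75.97, 86.1 and 129 FPKM in shTRMT6, against 32.9, 52.7 and 39.4 FPKM in shControl. The highest value was in shTRMT6 replicate 3 and the groups did not overlap. The log2 fold change was 1.19 (SE 0.28, limma adjusted p = 0.0111), on means of 97.1 ± 28.3 FPKM in shTRMT6 and 41.6 ± 10.1 FPKM in shControl (SD, n = 3 each). Without shTRMT6 replicate 3 the value was 0.97 and the call ended (adjusted p = 0.0533). HIRA likewise lost its call without shTRMT6 replicate 2 or 3, with adjusted p of 0.0695 and 0.0511.

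Among the replication-coupled chaperones, ASF1B fell and its paralogue ASF1A did not pass. ASF1B is the copy tied to proliferating cells. It lies on the minus strand of chromosome 19 from 14119509 to 14136956 (ENSG00000105011) and has a coding sequence of 606 nt. ASF1B had 38.3, 59.1 and 44.5 FPKM in shTRMT6, against 132, 123 and 91.5 FPKM in shControl. Every knockdown value lay below every control value. ASF1B averaged 47.3 ± 10.7 FPKM in shTRMT6 and 115 ± 21.2 FPKM in shControl (SD, n = 3 each), 2.44-fold higher in shControl, and the log2 fold change was -1.27 (SE 0.26, limma adjusted p = 0.0057). ASF1B passed as lower in each of the 15 alternative fits, with log2 fold changes between -1.76 and -1.10, and 2.51% of tested genes had a lower log2 fold change than it. Its values rest on few reads, an estimated 65 to 146 per shTRMT6 library and 195 to 263 per shControl library.

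ASF1A, the copy that also serves HIRA, lies on the plus strand of chromosome 6 from 118894220 to 118909167 (ENSG00000111875) and has a coding sequence of 612 nt, nearly that of ASF1B. ASF1A had 52.2, 34.6 and 51.5 FPKM in shTRMT6, against 54.2, 50.7 and 60.5 FPKM in shControl. The ranges overlapped, with shTRMT6 replicate 2 the lowest (log2 fold change -0.27, SE 0.25, limma adjusted p = 0.414). With median scaling ASF1A passed as lower, at -0.76 (adjusted p = 0.0427). ASF1A rests on an estimated 81 to 89 reads per shTRMT6 library and 81 to 145 per shControl library. The paralogues share no 28-nt stretch of coding sequence with each other or any other gene, and differ in the share of codons that end in G or C, 80.7% in ASF1B and 35.8% in ASF1A. The ratio of ASF1B to ASF1A footprints was 0.734, 1.71 and 0.864 in shTRMT6, against 2.44, 2.42 and 1.51 in shControl. Only shTRMT6 replicate 2 reached the control range, and the difference in mean log2 ratio was -1.01, with a two-sided exact permutation p of 0.2, where 3 against 3 libraries can give no p under 0.1.

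The 3 subunits of CAF-1 did not pass. CHAF1A, the large subunit that binds the sliding clamp PCNA, had 46.6, 70.5 and 69.8 FPKM in shTRMT6, against 28.97, 55.4 and 36.98 FPKM in shControl. Only shTRMT6 replicate 1 lay within the control range, and the log2 fold change of 0.64 (SE 0.30) missed the threshold (limma adjusted p = 0.124). Without shControl replicate 2 it passed, at 0.88 with an adjusted p of 0.0461, and with trends of level and coding length removed it was -0.03.

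CHAF1B, the middle subunit, had the lowest mean FPKM of the 10 members in shTRMT6, with 17.03, 13.3 and 12.2 FPKM, against 11.95, 14.05 and 26.8 FPKM in shControl. Its high value in shControl replicate 3 stood apart from the other 5 libraries, and the log2 fold change was -0.22 (SE 0.34, limma adjusted p = 0.636), or 0.11 without that library. These values rest on an estimated 52 to 91 reads per shTRMT6 library and 62 to 176 reads per shControl library. The ratio of CHAF1A to CHAF1B was 2.74, 5.29 and 5.74 in shTRMT6, against 2.42, 3.94 and 1.38 in shControl, and these ranges overlapped (difference in mean log2 ratio 0.89, two-sided exact permutation p = 0.2). Without shControl replicate 3 that difference was 0.497.

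RBBP4, the WD-repeat subunit of CAF-1 that is also found in deacetylase and Polycomb complexes, had the highest level of the 10 in both groups. RBBP4 had 210, 204 and 271 FPKM in shTRMT6, against 216, 242 and 281 FPKM in shControl, a log2 fold change of -0.11 (SE 0.22, limma adjusted p = 0.709). The groups overlapped almost completely. Of its 28-nt coding stretches 67.8% occur in other annotated genes, mostly RBBP4 pseudogenes, so its level is less certain. Its paralogue RBBP7, a partner of the acetylase HAT1, had 160, 104 and 195 FPKM in shTRMT6, against 80.2, 96.1 and 140 FPKM in shControl. The RBBP4 to RBBP7 ratio was 1.31, 1.97 and 1.39 in shTRMT6, against 2.70, 2.52 and 2.002 in shControl, without overlap (difference in mean log2 ratio -0.64, two-sided exact permutation p = 0.1, the lowest that 3 against 3 can give).

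NASP, the keeper of the soluble H3-H4 pool, was second in level in both groups. NASP had 206, 154 and 208 FPKM in shTRMT6, against 164, 184 and 272 FPKM in shControl, a log2 fold change of -0.10 (SE 0.25, limma adjusted p = 0.777). The control libraries spread more widely than the knockdown libraries, with shControl replicate 3 the highest. Of the 28-nt coding stretches of NASP, 24.7% also occur in 1 other annotated gene, AC022182.3. The fourth ratio compared, ATRX to DAXX, was 0.582, 0.553 and 0.771 in shTRMT6, against 0.436, 0.2397 and 0.468 in shControl. Those ranges did not overlap (difference in mean log2 ratio 0.78, two-sided exact permutation p = 0.1), and adjusted over the 4 pairs compared every p was 0.2. Without shControl replicate 2 the ATRX to DAXX difference was 0.475, and ATRX is much the longer of the pair.

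By mean level the order of the members differed between the groups. In shTRMT6, RBBP4 and NASP led, followed by HJURP, DAXX, CHAF1A, HIRA, ASF1B, ASF1A, ATRX and CHAF1B. In shControl, RBBP4 and NASP were followed by ASF1B, ASF1A, HJURP, CHAF1A, DAXX, HIRA, CHAF1B and ATRX. ASF1B thus stood at rank 7 in shTRMT6 and rank 3 in shControl. In shTRMT6 each neighbour from HJURP down to ATRX overlapped the next in range, as did RBBP4 and NASP, while CHAF1B lay below them all. In shControl, ASF1B overlapped neither NASP above it nor ASF1A below it.

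The measured change also moved with coding length and level in all tested genes, and the replication-independent members are long. HIRA, DAXX and HJURP, with 3051, 2220 and 2244 nt, fall in the seventh of 8 bins of coding length. There the median log2 fold change was 0.70 and 35.6% of genes were higher. ATRX falls in the longest bin, where the median was 0.89 and 44.7% of genes were higher. Above those medians HIRA lay by 0.38, DAXX by 0.13, HJURP by 0.49 and ATRX by 0.67 on the log2 scale. CHAF1A, in the same bin as HIRA, lay at -0.06 from the median and NASP at -0.80. ASF1A and ASF1B are short, in a bin with a median of -0.05, and lay at -0.22 and -1.22 from it. CHAF1B and RBBP4 lay at -0.68 and -0.44 from the medians of their length bins. Against bins of mean level, NASP lay at -0.07 from the median, RBBP4 at 0.27 and CHAF1A at 0.28. CHAF1B then lay at -0.80, ASF1A at -0.63 and ASF1B at -1.48. By level, HIRA lay at 0.66, DAXX at 0.47, HJURP at 0.99 and ATRX at 1.07.

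With trends of level and coding length removed from each library, none of the 4 replication-independent members passed, while ASF1B stayed lower at -1.26 (limma adjusted p = 0.00406). HJURP then had a log2 fold change of 0.64 (adjusted p = 0.0827), ATRX 0.61 (0.149), HIRA 0.35 (0.413) and DAXX 0.23 (0.493). In that limma fit 0 of the 10 members were higher, or 1, HJURP, at an unadjusted p under 0.05, with 13.4% of all genes higher, and 1 was lower, with 13.6% lower. The 4 values kept their positive sign and the median of the 4 was 0.48, beside -0.36 for the 6 replication-coupled members and -0.06 for all genes.

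**Figure D2:**
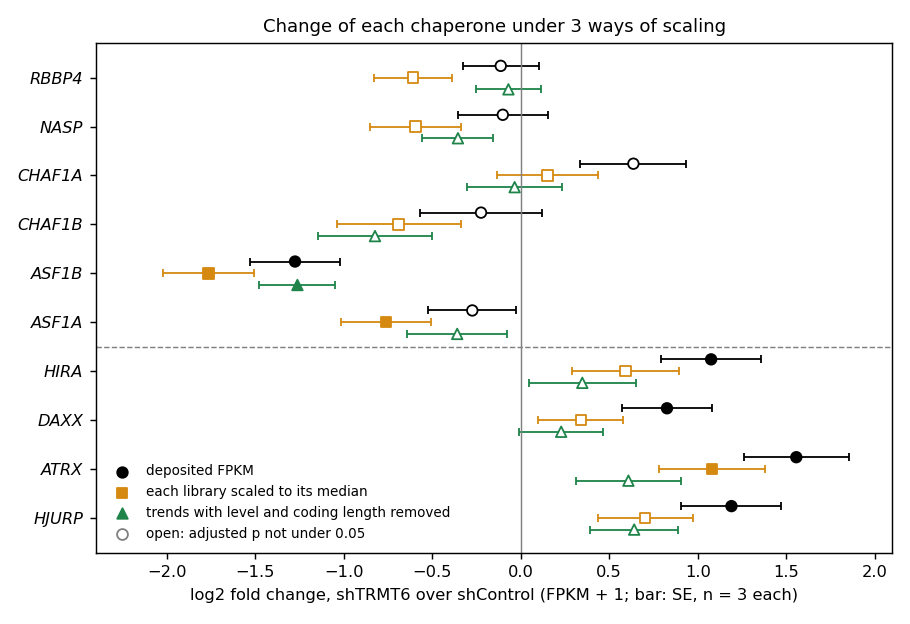
log2 fold change of shTRMT6 over shControl for each chaperone with its SE, from deposited FPKM, from libraries scaled to their median and with trends of level and coding length removed; filled symbols passed adjusted p under 0.05. ASF1B is filled in all 3, ATRX in 2, and HIRA, DAXX, HJURP and ASF1A in 1.

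**Figure D3:**
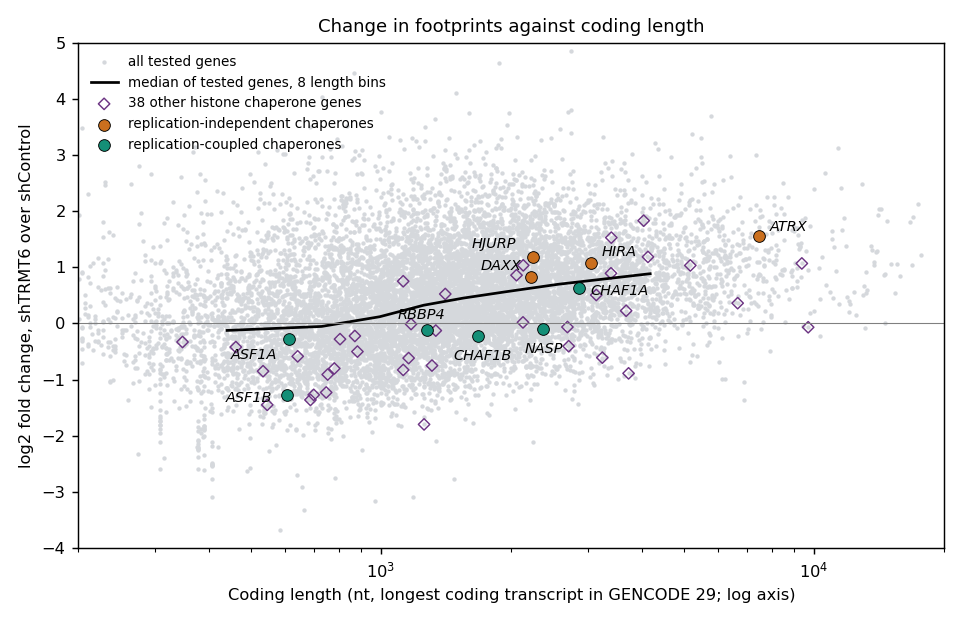
log2 fold change of shTRMT6 over shControl against coding length in nt on a log axis, with all tested genes in grey, their median in 8 length bins as a line, the 10 chaperones as filled circles and 38 other chaperone genes as diamonds; 43 genes lie outside the axes. The line climbs with length, ATRX, HIRA, HJURP and DAXX lie above it, and ASF1B lies well below it.

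Replication-dependent H3 and H4, the cargo of the replication-coupled chaperones, had far fewer footprints in shTRMT6 cells, while the summed footprints of those chaperones overlapped between the groups. Replication-dependent H3 genes (13 in the table) summed to 2932, 4119 and 2362 FPKM in shTRMT6, against 20871, 17600 and 15942 FPKM in shControl. The copies of these genes are near-identical and can share reads, so the sum and not each copy is given. H4 genes (15) summed to 7744, 10866 and 6775 FPKM in shTRMT6, against 34485, 30541 and 20793 FPKM in shControl. The 6 replication-coupled chaperones summed to 571, 536 and 658 FPKM in shTRMT6, against 607, 669 and 769 FPKM in shControl. RBBP4 and NASP make up most of this sum, so the lower ASF1B hardly shows in it, and with median scaling the median log2 fold change of the 6 genes was -0.65. Set side by side, H3 and H4 footprints amounted to 20.2 ± 7.16 FPKM per FPKM of these chaperones in shTRMT6 and 70.3 ± 21.8 in shControl (SD, n = 3 each). Short histone genes are thereby set against longer chaperone genes of lower level. Trends of level and coding length were not removed from this ratio.

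On the replication-independent side the H3.3 genes had fewer footprints, CENPA overlapped between the groups, and the carriers had more. The H3.3 genes H3-3A and H3-3B, which encode the same protein, summed to 843, 841 and 864 FPKM in shTRMT6, against 2702, 2421 and 2292 FPKM in shControl. HIRA, DAXX, ATRX and HJURP together summed to 229, 239 and 317 FPKM in shTRMT6, against 109, 131 and 117 FPKM in shControl. H3.3 footprints per summed FPKM of HIRA, DAXX and ATRX were 5.20 ± 0.526 in shTRMT6 and 32.1 ± 3.21 in shControl (SD, n = 3 each). This ratio sets short genes of high level against long ones. With trends of level and coding length removed the gap was smaller, with log2 fold changes of -1.11 for H3-3A and -1.05 for H3-3B beside 0.23 to 0.61 for the 3 carriers. CENPA, the cargo of HJURP, had 16.2, 19.1 and 15.9 FPKM in shTRMT6, against 22.3, 27.9 and 7.58 FPKM in shControl, and the groups overlapped. In two-sided exact permutation tests of the 4 cargo sums, H3, H4 and H3.3 each reached p = 0.1, the smallest possible, and CENPA had p = 0.7; adjusted over the 4, these were 0.133 and 0.7.

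**Figure D4:**
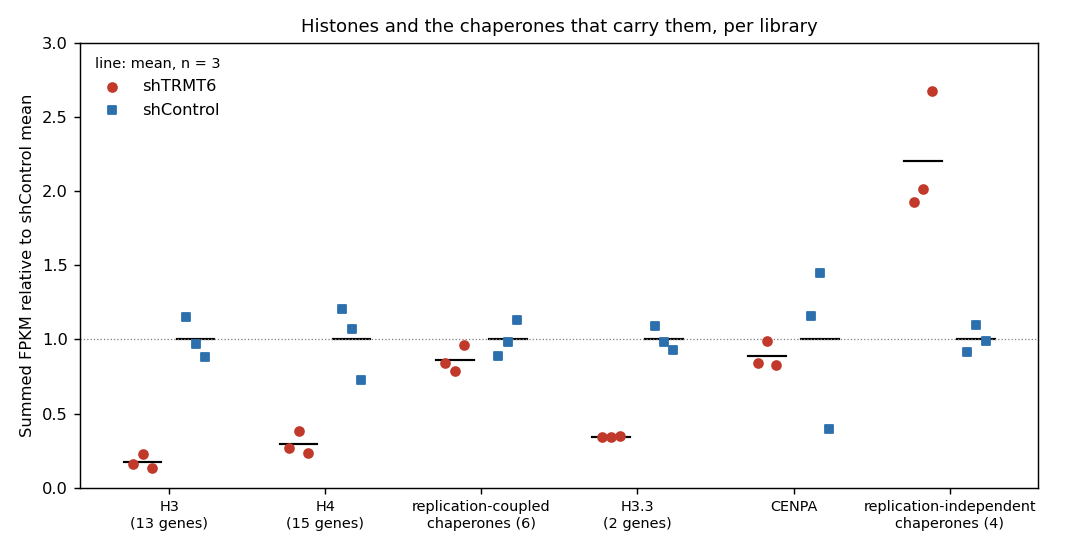
Summed FPKM per library relative to the shControl mean for histone cargo and chaperones, shTRMT6 as circles left of shControl as squares, with a line at each mean of 3 libraries. H3, H4 and H3.3 sit far below 1 in shTRMT6, the replication-coupled chaperones near 1, and the replication-independent chaperones at a mean of 2.20.

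Other genes of histone supply were followed through a list of 38, all of which were tested. Of these 6 were higher, against the background of 26.5%, 10 were lower, against 9.04%, and 22 did not pass. Their median log2 fold change was -0.25, beside 0.39 over all tested genes. Scaling to library medians gave 2 higher and 19 lower, against backgrounds of 13.2% and 19.7%, and removal of trends gave 2 higher and 10 lower, against 13.4% and 13.6%. UBN1 and UBN2, which join HIRA in its complex, were among those higher. UBN2 had 33.2 ± 6.38 FPKM in shTRMT6 and 8.56 ± 1.37 FPKM in shControl (SD, n = 3 each; log2 fold change 1.83, SE 0.28, limma adjusted p = 0.002), and it still passed with trends removed (1.00, adjusted p = 0.0195). UBN1, its paralogue, had 15.6 ± 4.39 FPKM in shTRMT6 and 4.61 ± 0.258 FPKM in shControl (log2 fold change 1.53, adjusted p = 0.0063), and did not pass with trends removed (0.62, adjusted p = 0.159). CABIN1, a further partner of HIRA, was picked out after its value was seen and did not pass, at 0.36.

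MIS18A and OIP5, which act before HJURP at the centromere, fell while HJURP rose. These paired Mis18 subunits, MIS18A and OIP5 in that order, license CENPA loading and had 21.0 ± 3.14 and 11.7 ± 3.26 FPKM in shTRMT6, against 52.6 ± 11.02 and 31.4 ± 7.68 FPKM in shControl (SD, n = 3 each). Their log2 fold changes were -1.27 and -1.36 (limma adjusted p = 0.00672 and 0.0103), and both also passed as lower with trends removed, a fit in which HJURP did not pass (0.64, adjusted p = 0.0827). Their coding sequences are short, at 699 and 687 nt.

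HAT1, which acetylates new H4 before it is carried to chromatin, had 70.8, 153 and 103 FPKM in shTRMT6, against 257, 308 and 600 FPKM in shControl. No values overlapped, and the log2 fold change was -1.80 (SE 0.36, limma adjusted p = 0.00601). The acidic chaperones ANP32A and ANP32B had log2 fold changes of -1.23 and -0.91 (adjusted p = 0.0055 and 0.00944), with 226 ± 9.46 and 699 ± 24.4 FPKM in shTRMT6, against 548 ± 170 and 1328 ± 262 FPKM in shControl (SD, n = 3 each). With trends removed ANP32A passed and ANP32B did not (adjusted p = 0.0302 and 0.124).

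TONSL and MMS22L form a complex that reads new histones behind the fork, and they moved in opposite directions. TONSL had a log2 fold change of 1.19 (limma adjusted p = 0.0232) and MMS22L, named after its value was seen, -0.89 (adjusted p = 0.0456), although both coding sequences are long, 4134 and 3729 nt. With trends removed MMS22L was at -1.70 and passed, while TONSL did not pass (0.32, adjusted p = 0.441). EP400, a remodeller that exchanges histone variants, and VPS72, which binds H2A.Z, were higher at 1.07 and 0.75 (adjusted p = 0.0236 and 0.0478), and neither passed with trends removed (adjusted p = 0.760 and 0.198). The FACT subunits SUPT16H and SSRP1, named after their values were seen, had 0.51 and 0.02 and did not pass.

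Several chaperones are made in S phase or in G2 and mitosis, so genes of those phases are set beside them. Of 40 S phase genes 12 were lower, against 9.04% of tested genes, and 1 was higher, against 26.5%. Median scaling made 21 lower, against 19.7%, and left 1 higher, against 13.2%. The median log2 fold change was -0.40 on deposited FPKM and -0.89 with median scaling, and their summed level was 2593 to 2747 FPKM in shTRMT6 and 3888 to 5935 FPKM in shControl. Of 30 G2 and mitosis genes 5 were lower and 7 higher, with a median of -0.19, but 14 were lower and 3 higher with median scaling (-0.65), and 11 lower and 1 higher with trends removed (-0.58), where 13.6% of all genes were lower and 13.4% higher. On deposited FPKM their sum was 1901 to 2046 FPKM in shTRMT6 and 2855 to 3298 FPKM in shControl. None of the 70 list entries was at 0 in every library. The part of cell cycle phase in the changes of ASF1B and HJURP was not tested.

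The profiles most like those of 3 members over the 6 libraries were found by Pearson's r of log2(FPKM + 1). ASF1B was closest to C14orf119, NXT1 and FN3K, with r of 0.999, 0.998 and 0.997, and 331 tested genes reached at least 0.95 with it. CHAF1A was closest to DAPK1, TARS3 and CHFR, with r of 0.993, 0.991 and 0.988, and 62 genes reached 0.95. HIRA was closest to MRM1, TTC12 and FBXL12, with r of 0.995, 0.991 and 0.991, and 63 genes reached 0.95. The 6 points fall into 2 groups, and their shared library scale and group difference enter each r.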

How the data were processed

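Footprint libraries of RKO cells, 3 shTRMT6 and 3 shControl, were compared. RNase I digestion and small RNA library kits are given by the labels' protocols. The authors deposited FPKM per gene, per the file headers. Tools named in the submitters' processing notes are fastp, STAR and RSEM, while versions, genome build, annotation and the division of reads between overlapping or near-identical genes were not given in the sources used here. Columns headed NC and SH, numbered 1 to 3, were taken by name as control and knockdown, although no label defines NC or SH, and 0 columns stayed unassigned.

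Of 20289 identifiers 20257 had a symbol and 20171 were found in GENCODE 29 (GRCh38), the source of positions and coding lengths, whose gene models may not be those of the authors. Promoters came from RefSeq. Reads were estimated from steps in low FPKM of genes with 1 coding transcript, where 70.8% to 79.9% of low values lay within 0.1 of a whole read, so depths are approximate and no count model was fitted. The test was limma 3.58.1 (R 4.3.3) on log2(FPKM + 1), with a term for group and eBayes with trend. It covered the 11566 genes that reached 1 FPKM in 3 or more libraries, and p-values were adjusted over them by Benjamini-Hochberg. Fold changes on this scale understate those of low genes. Stretches of 28 nt were compared between the longest coding sequence of a member and every GENCODE 29 transcript of other genes. Ratios and cargo sums were tested by exact permutation in scipy 1.17.1. Members, lists and the rule for named genes (the 10 members, TRMT6, up to 5 other chaperone genes called in each direction by smallest p, and the 3 profiles most like ASF1B, CHAF1A and HIRA) were chosen with earlier results of these data known. Alternatives were 4 other library scalings or normalizations, removal of trends by splines with 5 degrees of freedom, other filters (none, or a mean of 5 FPKM), a pseudocount of 0.1 in place of 1, a replicate block, another grouping of members, and leaving out each library.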

Additional observations from a re-analysis of the deposited data

How the results depend on the processing

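ASF1B passed as lower, and CHAF1B, NASP and RBBP4 did not pass, in every fit run. Median scaling gave 1522 genes higher and 2275 lower, with 1 member higher and 2 lower, and 2 other chaperone genes higher and 19 lower. HIRA (0.59), HJURP (0.70) and DAXX (0.34) then lost their calls, ASF1A passed (-0.76), and the medians were 0.65 for replication-independent and -0.65 for replication-coupled members. Quantile normalization gave 1602 genes higher and 1700 lower, 2 members and 2 other chaperone genes higher, no call for HIRA (0.65) and DAXX (0.47), RBBP4 at 0.033, and a replication-independent median of 0.78. With trends of level and coding length removed 1525 genes, 0 members (1 at an unadjusted limma p under 0.05) and 2 other chaperone genes were higher. HIRA (0.35), HJURP (0.64), DAXX (0.23) and ATRX (0.61) lost their calls, CHAF1A turned to -0.034, and the replication-independent median was 0.48. Without mitochondrial and replication-dependent histone genes in the library sum NASP was 0.075 and RBBP4 0.064, and the medians were 1.31 and 0.0018. With NASP and ASF1A placed among the replication-independent members the median of that group was 0.95. Beyond these shifts of scale, the cause was not tested.

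Leaving out 1 library gave 1828 to 3270 genes higher and 587 to 1428 lower, 1 to 5 members higher, and 2 to 9 other chaperone genes higher and 5 to 12 lower. Over the same fits log2 fold changes ranged from 0.84 to 1.24 for HIRA, 0.97 to 1.37 for HJURP, 0.72 to 1.01 for DAXX, 0.43 to 0.88 for CHAF1A, -0.44 to 0.11 for CHAF1B and -0.25 to 0.11 for NASP, and the replication-coupled median from -0.27 to 0.047. Leaving out shControl replicate 2 gave the 5 members, beside 3133 of 11566 genes higher, and leaving out shTRMT6 replicate 3 gave the 1. Leaving out shTRMT6 replicate 2 gave 2 members, beside 2080 genes higher. Of all genes, 1957 were higher and 587 lower without shTRMT6 replicate 1, 1828 and 599 without shTRMT6 replicate 3, and 684 were lower without shControl replicate 1. NASP, CHAF1B and the replication-coupled median turned positive without shControl replicate 3, and NASP also did without shTRMT6 replicate 2. The replicate numbers showed no clear pairing of the libraries, which 3 libraries per group cannot settle. Deviations from group means correlated at 0.012, 0.013 and 0.102 between same-numbered libraries, and at -0.143 to 0.127 between differently numbered ones. With the replicate block 3146 genes were higher and 1065 lower and every member kept its call. CHAF1B, at an estimated 52 to 176 reads per library, had the largest SE of the 10 members (0.34), which was 0.27 without shControl replicate 3.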
